A study of Mus musculus with 7 samples.

Results

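The Wnt ligands, their receptors and the genes that feed back on the pathway were followed in primary mouse oligodendroglia that lacked Klf13. The set held 47 of the 49315 genes in the count files. It was taken by gene symbol and comprised all 19 Wnt genes, all 10 frizzled (Fzd) receptors and 18 further genes: Lrp5, Lrp6, Ctnnb1, Tcf7, Tcf7l1, Tcf7l2, Lef1, Axin2, Apcdd1, Notum, Znrf3, Rnf43, Dkk1, Dkk2, Dkk3, Sfrp1, Sfrp2 and Daam2. The rule used gene symbols and no measured value, but the set was chosen with earlier results of these data known. RNA-seq counts were available for 4 cultures from wildtype mice (genotype Klf13-wt, here control) and 3 cultures from KLF13-deficient mice (genotype Klf13-ko, here knockout), each sampled after 6 days under differentiating conditions. All cultures came from the brains of newborn pups of either sex, were enriched for oligodendrocyte progenitor cells (OPCs) by shake-off from mixed glia with microglia depletion, and were kept in SATO medium with the thyroid hormones T3 and T4. The deletion is constitutive and present in every cell type, the accompanying glia included. The labels number the cultures as biological replicates but do not say how many pups went into each, and p-values therefore describe the spread between these cultures.

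In the canonical Wnt pathway a secreted Wnt protein binds a frizzled receptor together with LRP5 or LRP6, which protects β-catenin (the product of Ctnnb1) from degradation and lets it activate genes through the TCF and LEF factors. Some of those genes, such as Axin2, encode inhibitors and so form a negative feedback loop. Other Wnt signals run through planar cell polarity proteins without β-catenin. In oligodendroglia the pathway is best known as a brake on the passage from OPC to myelinating cell, while OPCs themselves secrete Wnt7a and Wnt7b, which act on brain blood vessels. KLF13 is a zinc finger transcription factor of a family that binds GC boxes and CACCC boxes.

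The libraries held 24507471 to 59596479 counts. The target gene matched the labels. Klf13 had 10915, 11769, 11999.5 and 10670 normalized counts in controls 1 to 4 and 802, 876 and 961 in knockouts 1 to 3. Normalized counts are counts per scaled library size, brought to a common size of 43945387 counts. Between 6.03% and 18.0% of the counts of a library lay on 3 genes that collect ribosomal RNA reads (Gm42418, Gm23935 and Lars2), and this share was above 10% in controls 1 and 4 and knockouts 1 and 3. The cultures differed in cell type markers. The summed level of 7 mature oligodendrocyte markers was 2052 to 3022 CPM (counts scaled to library size) in controls and 300.5 to 339 in knockouts, and all 7 fell. All 9 neuron markers and 7 of 8 astrocyte markers rose, with sums of 565 to 863 against 1568 to 1917 and of 3362 to 3822 against 5085 to 5778 CPM, respectively. OPC markers summed to 3515 to 3858 and 4490 to 4523 CPM, with 3 of 8 higher. Fibroblast and mural markers summed to 492, 387, 1577 and 1306 CPM in controls 1 to 4 and to 290, 175 and 401 in the knockouts (1 of 8 lower, Dcn, tested through the controls only), and microglia markers reached 1677 in control 3 against 336 to 738 in the other 6 libraries (0 of 8 passed). Endothelial markers stayed at 9.18 to 25.7 CPM, with 1 of 4 tested lower (Cdh5) and Cldn5 at 3 counts or fewer in each library. In such bulk samples, fewer cells of a type and less RNA per cell cannot be told apart.

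Of the 47 Wnt pathway genes, 35 had enough counts to be tested between genotypes. With edgeR's quasi-likelihood test and Benjamini-Hochberg adjustment over 18352 genes, 2 fell in the knockout (Wnt3 and Fzd5) and 5 rose (Wnt5a, Wnt7a, Fzd2, Fzd3 and Sfrp2) at an adjusted p of at most 0.05. The remaining 28 did not pass. The number of higher genes dropped to 3 when control 1, control 4 or any 1 knockout was left out, and to 2 without controls 3 and 4, and was 7 without control 2. Over all tested genes 12.2% passed as lower and 11.6% as higher, against 5.71% and 14.3% of the tested Wnt pathway genes. When a log2 fold change of at least 1 was also required, 1 gene was lower (Wnt3) and 3 were higher (Sfrp2, Wnt5a and Wnt7a), against 3.08% and 3.97% of all tested genes. With the replicate number as a block, 1 gene remained in the latter class (Sfrp2), because Wnt5a and Wnt7a then had log2 fold changes of 0.93 and 0.87. Sfrp2 was also alone in it without control 4, without knockout 2 and without controls 3 and 4, and without control 2 there were 2 lower genes (Wnt2 and Wnt3). The knockout values lay below all control values for 3 genes and above them for 7, which compares with 18.0% and 18.3% of all tested genes. The median log2 fold change of the 35 genes was 0.01, and that of all tested genes was -0.0037.

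**Figure D1:**
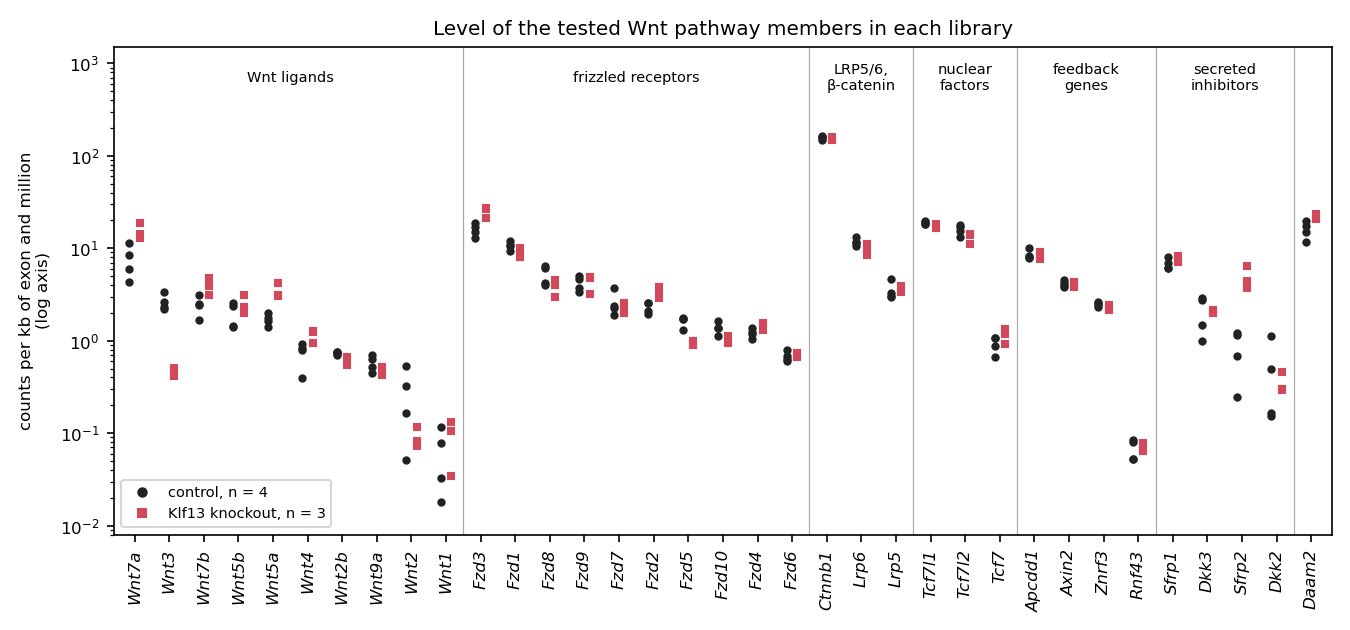
Levels of the 35 tested Wnt pathway genes, in CPM per kilobase of exon on a log axis, ordered within each group by the control mean. Black circles are the 4 control libraries and red squares the 3 knockout libraries. Ctnnb1 lies above all others at about 156, and Wnt3 and Sfrp2 show the widest gaps between genotypes.

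Promoter sequence in RefSeq (build GRCm38.p6) was at hand for 32 of the 47 genes, among them 4 of the 7 that passed. The 250 bases before the RefSeq start are shown for these 4, 5′ to 3′ on the strand of the gene, because the family of KLF13 binds the motifs searched for. Capitals mark a GC box (GGGCGG, or CCGCCC on the other strand) or a CACCC box (CACCC, or GGGTG on the other strand). The study itself searched for a different Klf motif, (A/C)C(G/A/T)CCC, and its further matches are not marked or counted here. The windows are chr11:103773925-103774174 (plus strand) for Wnt3, chr6:91411354-91411603 (minus) for Wnt7a, chr1:64737751-64738000 (minus) for Fzd5 and chr3:83766071-83766320 (plus) for Sfrp2.
Wnt3: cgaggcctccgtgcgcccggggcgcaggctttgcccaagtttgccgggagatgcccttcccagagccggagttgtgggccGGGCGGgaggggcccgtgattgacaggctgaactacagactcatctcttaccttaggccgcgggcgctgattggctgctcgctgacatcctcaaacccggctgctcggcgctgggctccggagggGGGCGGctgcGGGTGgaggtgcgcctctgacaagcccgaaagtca
Wnt7a: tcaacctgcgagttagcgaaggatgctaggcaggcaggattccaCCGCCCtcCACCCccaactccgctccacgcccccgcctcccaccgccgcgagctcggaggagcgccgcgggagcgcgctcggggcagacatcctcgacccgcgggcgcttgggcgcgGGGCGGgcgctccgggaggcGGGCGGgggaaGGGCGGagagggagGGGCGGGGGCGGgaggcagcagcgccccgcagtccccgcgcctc
Fzd5: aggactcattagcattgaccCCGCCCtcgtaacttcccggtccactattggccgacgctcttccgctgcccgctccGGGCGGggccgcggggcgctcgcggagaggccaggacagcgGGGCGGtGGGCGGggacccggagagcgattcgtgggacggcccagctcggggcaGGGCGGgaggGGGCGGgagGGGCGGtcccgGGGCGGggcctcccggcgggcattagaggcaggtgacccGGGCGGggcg
Sfrp2: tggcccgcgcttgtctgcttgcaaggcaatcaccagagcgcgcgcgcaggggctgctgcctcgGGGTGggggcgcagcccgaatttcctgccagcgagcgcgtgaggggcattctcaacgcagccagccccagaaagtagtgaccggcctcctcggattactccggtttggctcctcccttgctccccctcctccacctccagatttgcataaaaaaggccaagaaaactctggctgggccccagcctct
The Wnt3 window held 2 GC boxes and 1 CACCC box, that of Wnt7a 6 and 1, that of Fzd5 9 and 0, and that of Sfrp2 0 and 1. None of the 4 held the TCF/LEF core CTTTGA or its reverse complement TCAAAG. Matches were counted on both strands, and abutting or overlapping matches of different motifs were each counted. Over the 43 windows of the 32 genes, a GC box was found in 72.1%, a CACCC box in 65.1% and the TCF/LEF core in 11.6%. Over all 32817 windows of the same length the shares were 32.7%, 52.0% and 13.8%. These shares were not matched for base composition, and some of the 43 windows overlap. In the 4 windows shown, 63.6% (Sfrp2) to 77.6% (Wnt7a) of the bases were G or C. The windows of the fallen Wnt3 and Fzd5 and of the risen Wnt7a thus all held GC boxes, and such matches describe the letters only.

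Among the ligands, Wnt3 showed the clearest difference. Wnt3 (chr11:103774150-103817957, GRCm38), which encodes a ligand of the canonical pathway, had 358, 459.5, 313 and 300.5 normalized counts in controls 1 to 4 and 65.0, 55.7 and 69.3 in knockouts 1 to 3. Every knockout library lay far below the lowest control, and the 3 knockout values were close together. The difference was 5.65-fold (log2 fold change -2.50, SE 0.20, 95% confidence interval -2.96 to -2.04; edgeR adjusted p = 0.000292). It passed under all 15 alternatives, with log2 fold changes of -2.70 to -2.35. Per exon length, Wnt3 had 2.65 ± 0.53 CPM per kilobase in the controls (SD, n = 4), a level within 1 SD of that of Wnt7b (2.42 ± 0.59), and the knockouts had 0.468 ± 0.052 (n = 3), close to that of Wnt9a (0.481 ± 0.053).

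Wnt5a and Wnt7a moved the opposite way. Wnt5a (chr14:28504750-28527447), a ligand known mainly for signalling without β-catenin, had 606, 686, 561 and 481 normalized counts in controls and 1035, 1439 and 1085 in knockouts. The groups did not overlap, and the difference was 2.03-fold (log2 1.02, SE 0.16, 95% confidence interval 0.66 to 1.39; edgeR adjusted p = 0.00478). It passed under all 15 alternatives. Wnt7a (chr6:91363981-91411363), one of the vessel-directed ligands of OPCs, had 1180, 1573, 823 and 606 normalized counts in controls and 2000, 2581 and 1811 in knockouts. Again no knockout value fell within the control range, but the controls spread over more than the distance between the lowest knockout and the highest control. The difference was 2.04-fold (log2 1.03, SE 0.31, 95% confidence interval 0.31 to 1.75) and just passed (edgeR adjusted p = 0.0491). It passed under 6 of 15 alternatives. It was lost without control 1 (edgeR adjusted p = 0.0678), control 3 (0.0906) or control 4 (0.0571), without knockout 1 (0.0944), knockout 2 (0.160) or knockout 3 (0.0703), and without controls 3 and 4 together (0.0903), which carried the most fibroblast and mural markers. It was also lost with the size factors of DESeq2 in edgeR (adjusted p = 0.0503) and with no filter on low counts (0.169). Wnt7a was the ligand with the highest level per exon length in both genotypes, at 7.50 ± 3.0 CPM per kilobase in controls (SD, n = 4) and 15.3 ± 2.9 in knockouts (n = 3).

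Its close relative Wnt7b gave a similar picture just outside the threshold. Wnt7b had 481, 602, 469.8 and 325 normalized counts in controls and 753, 914 and 599 in knockouts, so that the lowest knockout lay just under the highest control. The log2 fold change was 0.69 (95% confidence interval 0.17 to 1.20; edgeR adjusted p = 0.0605). It passed under 6 of 15 alternatives, namely with the replicate number as a block (edgeR adjusted p = 0.0230), without control 2 (0.0371), without knockout 3 (0.0473), with library sizes that left out the 100 highest genes (0.0484), with a term for the ribosomal RNA share (0.0189) and with DESeq2 (0.0305). Under the other 9 the adjusted p reached at most 0.196, without knockout 2. The Wnt7b exons share 38 of 4413 bases with a gene on the other strand (AU022754), and Wnt5a shares 358 of 7822 with Gm2670. Whether the counting used strand is not given in the sources used here. These neighbours had 99 and 78 counts in all, which does not show how many reads fell in the shared bases.

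The 6 other tested ligands did not pass, with log2 fold changes from -1.54 (Wnt2) to 0.69 (Wnt1). Both of these lay near the count minimum, and Wnt2 entered the test through the controls only. Wnt2 had 16.2, 5.03, 32 and 53.4 normalized counts in controls and 7.22, 8.25 and 11.4 in knockouts, highest in controls 3 and 4, which carried the most fibroblast and mural markers. Its log2 fold change was -1.89 without control 2, where it passed (edgeR adjusted p = 0.0400), -0.91 without control 4 (0.399), -0.75 with the replicate number as a block (0.386) and -0.15 without controls 3 and 4 (0.915). The part of other cells in these counts was not tested. Wnt4 lay higher in all knockouts (172 to 234 normalized counts) than in all controls (73.2 to 169.9), and Wnt2b lower (101 to 122 against 128 to 140.4), yet neither passed (edgeR adjusted p = 0.146 and 0.242). Wnt5b had a log2 fold change of 0.36 and passed only with the term for the ribosomal RNA share (edgeR adjusted p = 0.0230), and Wnt9a one of -0.26. The 9 untested ligands were close to silent. Wnt3a, Wnt8a and Wnt10a had no count in any control, which at this depth allows up to 0.0605 to 0.0903 CPM per library, and 2, 1 and 1 counts in all knockouts together. Wnt9b, Wnt10b, Wnt16, Wnt6, Wnt8b and Wnt11 had 5 to 40 counts summed over the 7 libraries.

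**Figure D2:**
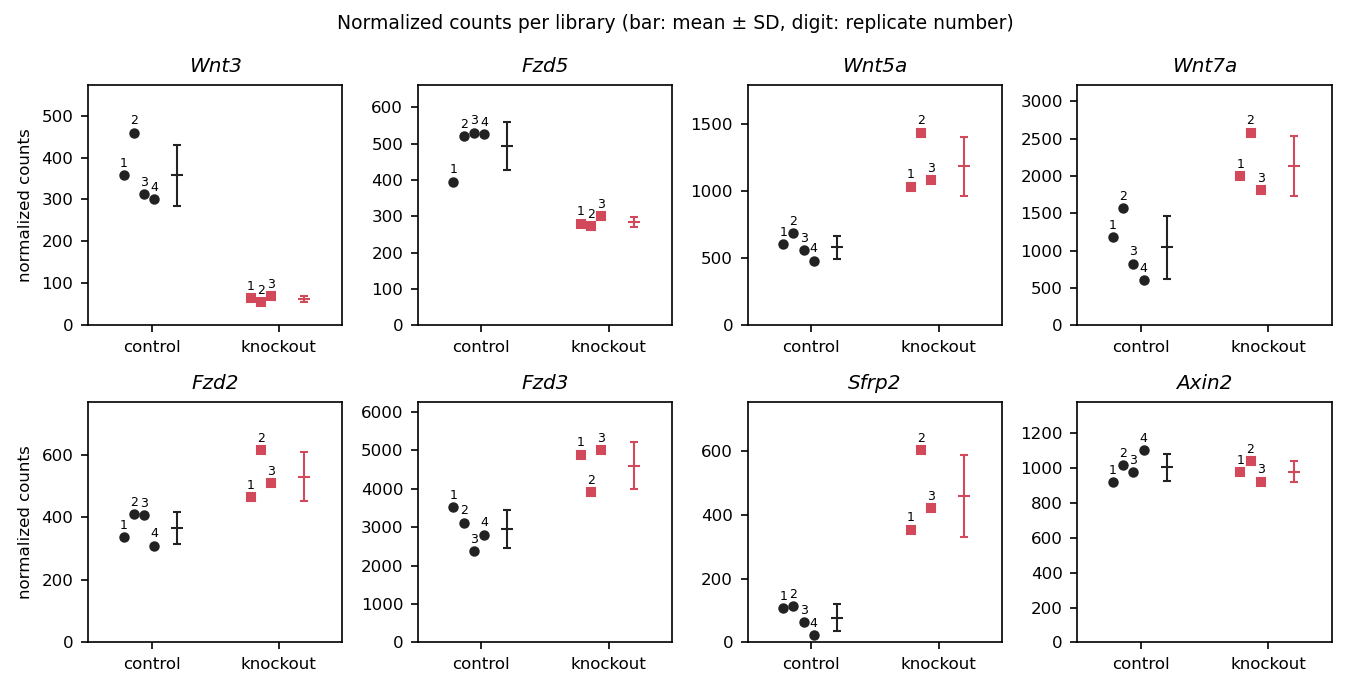
Normalized counts in each library for the 7 Wnt pathway genes that passed and for Axin2, which did not. Circles are controls and squares knockouts, the digit is the replicate number, and bars give the mean ± SD. For the 7 genes no knockout value falls within the control range, while for Axin2 all 7 libraries lie between 921 and 1105.

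All 10 frizzled genes, which encode the membrane receptors for Wnt proteins, were expressed and tested. Fzd3 and Fzd2 rose, Fzd5 fell, and the other 7 did not pass. Fzd3 (chr14:65201026-65262463), a receptor known from planar cell polarity and axon guidance, had the highest level per exon length of the family, at 15.9 ± 2.6 CPM per kilobase in controls (SD, n = 4) and 24.8 ± 3.3 in knockouts (n = 3). Its normalized counts were 3516, 3115, 2371 and 2804 in controls and 4887, 3903 and 5009 in knockouts. All knockouts exceeded all controls (log2 fold change 0.64, SE 0.14, 95% confidence interval 0.30 to 0.98; edgeR adjusted p = 0.0187). The call was lost without knockout 1 (edgeR adjusted p = 0.0626), without knockout 3 (0.0585) and without controls 3 and 4 (0.0608), and it held under the other 12 alternatives.

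Fzd2 (chr11:102604396-102608058) had 338, 409, 407 and 309.8 normalized counts in controls and 464, 616 and 510.3 in knockouts. The groups did not overlap, with a log2 fold change of 0.54 (SE 0.15, 95% confidence interval 0.20 to 0.88; edgeR adjusted p = 0.0354). It was lost without control 1 (edgeR adjusted p = 0.0656), control 4 (0.0598), knockout 2 (0.124) or knockout 3 (0.0664), and without controls 3 and 4 (0.103). Fzd5 (chr1:64730558-64737751) had 396, 519.9, 530.4 and 527 normalized counts in controls and 279.8, 274 and 301 in knockouts. Here control 1 stood below the other controls but still above all knockouts. Fzd5 fell by 0.79 on the log2 scale (SE 0.13, 95% confidence interval -1.09 to -0.49; edgeR adjusted p = 0.00607) and passed under all 15 alternatives. Of its 6915 exon bases 1233 are shared with Gm38058 on the other strand, which had 8 counts in all.

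Fzd1, the next in level, had 1701, 1958, 2201 and 1993 normalized counts in controls and 1847, 1686 and 1469.9 in knockouts. The ranges overlapped, and the log2 fold change of -0.24 (95% confidence interval -0.49 to 0.02) did not pass (edgeR adjusted p = 0.162). The 6 remaining receptors had log2 fold changes from -0.43 (Fzd8 and Fzd10) to 0.27 (Fzd4). Fzd10 passed with DESeq2 (adjusted p = 0.0442) but not with edgeR (adjusted p = 0.0906).

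None of the 3 genes for the co-receptors and β-catenin passed. Lrp6, the more abundant of the paired co-receptors, had 6964, 6299, 6833 and 7849 normalized counts in controls and 5918, 5026 and 6613 in knockouts. The groups overlapped, and the log2 fold change was -0.26 (95% confidence interval -0.51 to -0.00; edgeR adjusted p = 0.137). It passed with a term for the ribosomal RNA share (edgeR adjusted p = 0.0267). Lrp5 had a log2 fold change of 0.04. Ctnnb1 was the most abundant gene of the set per exon length, at 156 ± 7.5 CPM per kilobase in controls and 155 ± 5.4 in knockouts. It had 33461, 35107, 36465 and 37366 normalized counts in controls and 34141, 36576 and 35039.5 in knockouts. The genotypes covered the same range, and the interval of the difference was narrow (log2 fold change -0.01, 95% confidence interval -0.16 to 0.13). Of its 5192 exon bases 759 lie opposite to Ulk4, which had 1500 counts in all.

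The TCF and LEF factors, which carry β-catenin to DNA, were not called in either direction. Tcf7l1 had 3312, 3189.6, 3134 and 3366 normalized counts in controls and 2822, 3137 and 2821 in knockouts (log2 fold change -0.15, 95% confidence interval -0.29 to -0.01; edgeR adjusted p = 0.110). A single knockout reached into the control range. Tcf7l2, known to be transiently high in differentiating oligodendrocytes, had 6540, 5055, 5936 and 6849 in controls and 5306, 4218 and 5441 in knockouts. These overlapped, with a log2 fold change of -0.29 (95% confidence interval -0.59 to 0.01; edgeR adjusted p = 0.151), and Tcf7l2 passed when a term for the ribosomal RNA share was added (edgeR adjusted p = 0.0119). Tcf7 had a log2 fold change of 0.31. Lef1 was not tested. It had 4, 5, 24 and 32 counts in controls and 4, 3 and 12 in knockouts, highest in the libraries with the most fibroblast and mural markers, and the part of other cells in these counts was not tested.

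None of the 4 tested feedback genes passed. Axin2, a scaffold of the complex that degrades β-catenin and itself a direct target, had 921, 1018, 977 and 1105 normalized counts in controls and 977, 1041 and 922 in knockouts. The genotypes were interleaved, and the interval of the log2 fold change of -0.04 ran from -0.23 to 0.16 (edgeR adjusted p = 0.792). Apcdd1, which encodes a membrane-bound Wnt inhibitor and had the highest level of this group (8.55 ± 1.1 and 8.31 ± 0.75 CPM per kilobase), had 973, 977, 1013 and 1244 normalized counts in controls and 1125, 999 and 944 in knockouts. Its log2 fold change was -0.04 (95% confidence interval -0.30 to 0.22). Znrf3 and Rnf43, ubiquitin ligases that remove frizzled receptors from the cell surface, had log2 fold changes of -0.16 (95% confidence interval -0.36 to 0.03) and 0.09. Rnf43 was scarce, at 15 to 24.3 normalized counts. Notum, which inactivates Wnt proteins by removing their lipid, had 44 counts in the 7 libraries and was not tested.

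Among the secreted inhibitors, Sfrp2 rose. Sfrp2 (chr3:83766321-83774316) encodes a frizzled-related protein that binds Wnt proteins outside the cell. It had 108, 115, 64.0 and 23.4 normalized counts in controls and 354, 605 and 422 in knockouts. The groups lay far apart, and control 4 stood at the bottom. The difference was 5.98-fold (log2 fold change 2.58, SE 0.48, 95% confidence interval 1.45 to 3.71; edgeR adjusted p = 0.00997), and it passed under all 15 alternatives with log2 fold changes of 2.05 to 2.85. Its relative Sfrp1 was the most abundant inhibitor in the controls (6.83 ± 0.94 CPM per kilobase, SD, n = 4). Sfrp1 had 1171, 1341, 1183 and 1556 normalized counts in controls and 1513, 1575 and 1365 in knockouts, which overlapped (log2 fold change 0.18, 95% confidence interval -0.09 to 0.44; edgeR adjusted p = 0.313). Per exon length, Sfrp2 had 0.819 ± 0.45 CPM per kilobase in controls and 4.86 ± 1.4 in knockouts, and Sfrp1 had 7.73 ± 0.56 in knockouts. Of the Sfrp2 exon bases, 347 of 2153 lie opposite to Gm26771, which had 3 counts in all.

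Of the Dickkopf genes, Dkk1 and Dkk2, whose products bind LRP6, were low. Dkk3 had 217, 146, 432 and 411 normalized counts in controls and 298, 319.6 and 296 in knockouts. Controls 3 and 4, the cultures with the most fibroblast and mural markers, were highest, and the interval of the difference was wide (log2 fold change 0.01, 95% confidence interval -0.84 to 0.87). Dkk2 followed the same order within the controls, at 27.0, 25.1, 184 and 81.4, and its log2 fold change was -0.47 (95% confidence interval -2.10 to 1.16). The sign turned without control 3 (log2 0.34; edgeR adjusted p = 0.681) and without controls 3 and 4 (log2 1.13; 0.0716), where Dkk3 had 0.75 (0.0556). The part of fibroblast and mural cells in these values was not tested. Dkk1 had no count in the controls and 1, 3 and 5 counts in knockouts 1 to 3.

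Daam2, a formin described as an enhancer of Wnt signalling that holds back OPC differentiation, had 4627, 5242, 4018 and 3132 normalized counts in controls and 5459.7, 6118 and 6164 in knockouts. All knockouts exceeded all controls, but the log2 fold change of 0.48 (95% confidence interval 0.10 to 0.85) did not pass (edgeR adjusted p = 0.0713). It passed without control 2 (edgeR adjusted p = 0.0315).

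**Figure D3:**
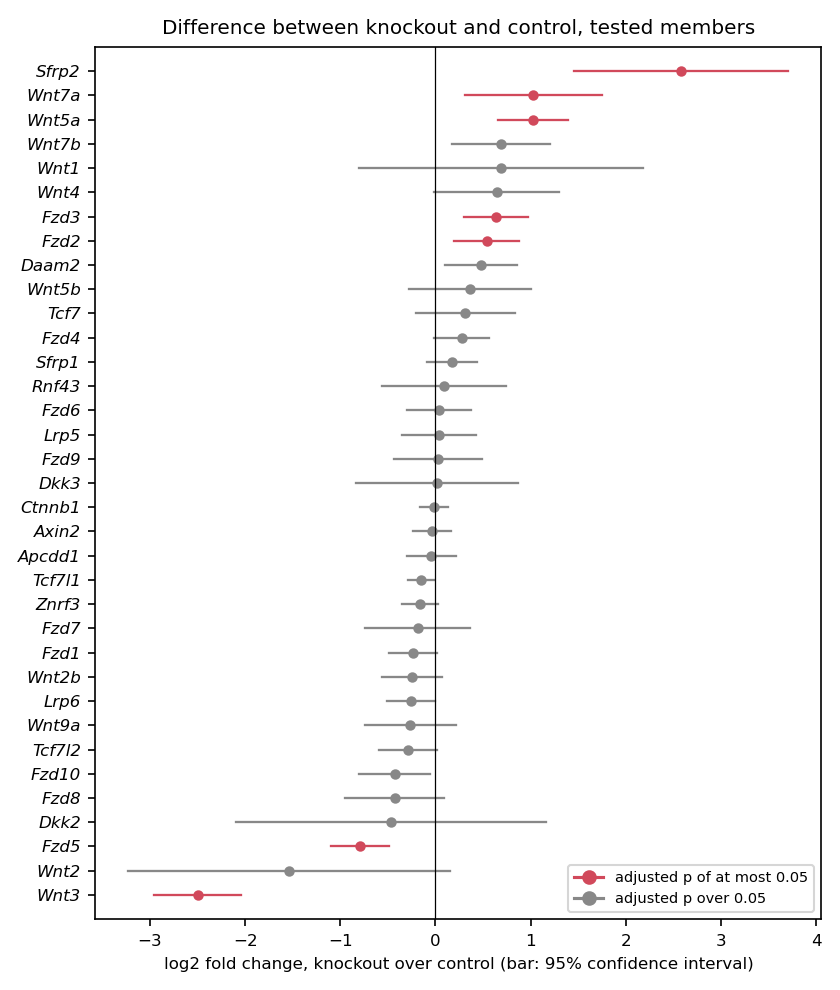
Log2 fold change of knockout over control with its 95% confidence interval for the 35 tested Wnt pathway genes, red where the adjusted p was at most 0.05. Sfrp2 (2.58) and Wnt3 (-2.50) lie at the ends, while Ctnnb1, Axin2 and Apcdd1 lie near 0 with narrow intervals.

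The 7 genes that passed were set beside the technical class and the marker sums. Within the libraries with a ribosomal RNA share above 10% (2 controls, 2 knockouts) and within the others (2 controls, 1 knockout), the log2 differences were -2.28 and -2.78 for Wnt3, -0.67 and -0.94 for Fzd5, 0.96 and 1.21 for Wnt5a, and 2.55 and 2.75 for Sfrp2. For Wnt7a they were 1.09 and 1.11, for Fzd2 0.59 and 0.59, and for Fzd3 0.65 and 0.51. Since the genotypes did not overlap for any of these genes, the direction within a class was fixed and only the sizes are informative. The summed oligodendrocyte markers were lower in all knockouts than in all controls, and the neuron, astrocyte and OPC sums were higher (for OPCs 4490 to 4523 against 3515 to 3858 CPM). Among the controls, the neuron marker sum was 802, 863, 569 and 565 CPM in controls 1 to 4, and 4 of the 5 risen genes (Wnt5a, Wnt7a, Fzd3 and Sfrp2) were likewise higher in controls 1 and 2 than in controls 3 and 4. The astrocyte sum had the same split (3751, 3822, 3580 and 3362 CPM), and the fibroblast and mural sum the inverse one (492, 387, 1577 and 1306 CPM). Fzd2 did not share this split, with its highest control values in controls 2 and 3. The oligodendrocyte, astrocyte and neuron sums were each highest in control 2 and lowest in control 4, as was Wnt3, whereas Fzd5 was lowest in control 1. Over the 9 neuron markers the median log2 fold change was 1.91 (range 0.72 to 2.43). It was 0.65 over the 8 astrocyte, 0.21 over the 8 OPC and -3.24 over the 7 oligodendrocyte markers. Among the markers with the highest level per exon length, Mag and Mobp had log2 fold changes of -2.69 and -3.35 and Tubb3 and Map2 of 0.72 and 0.73. The astrocyte genes S100b and Gfap had -0.54 and 0.66, of which only Gfap passed. The OPC genes Gpr17 and Cacng4 had 0.26 and 0.44, of which only Cacng4 passed. C1qa and C1qb (microglia) had -0.41 and -0.32, Cdh5 and Flt1 (endothelium) -2.75 and -0.81, and Acta2 and Col1a1 (mural cells and fibroblasts) -0.51 and -2.30, and only Cdh5 among these 6 passed, having entered the test through the controls only. The part of shifts in cell type in the Wnt pathway differences was not tested.

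**Figure D4:**
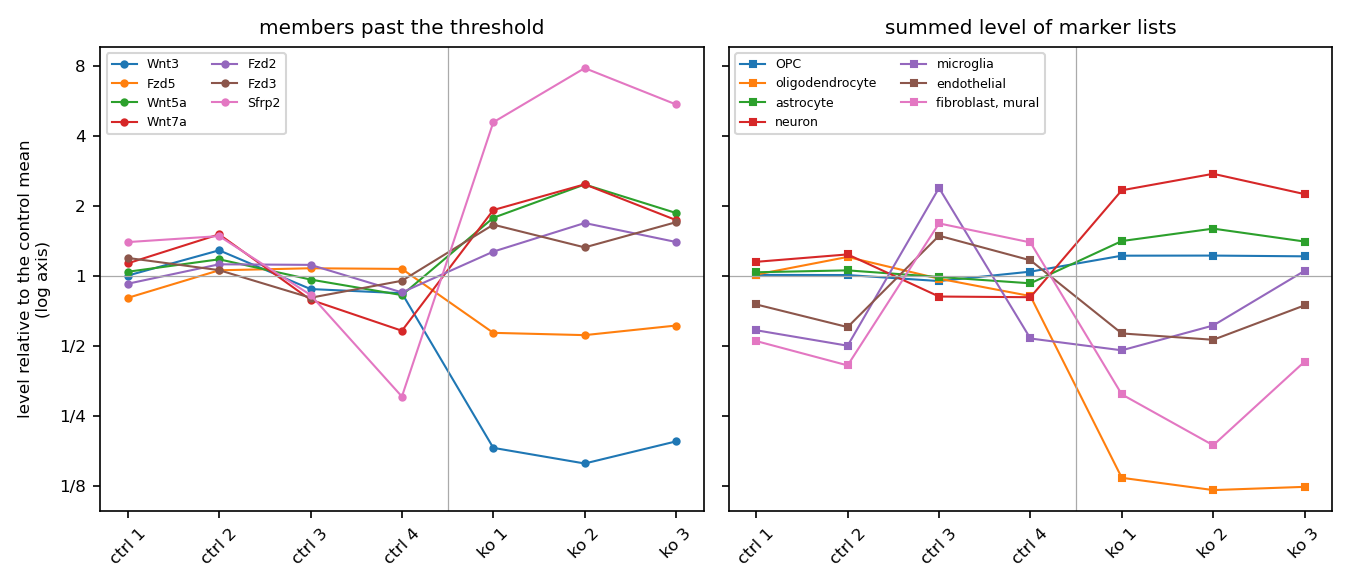
Left, the 7 Wnt pathway genes that passed, and right, the summed level of 7 marker lists, each divided by its control mean and shown per library on a log axis (ctrl, control; ko, knockout; lines only join the values of one gene or list). Wnt3 and the oligodendrocyte sum drop in the knockouts, Sfrp2 and the neuron sum climb, and the fibroblast and mural sum separates controls 3 and 4 from the other libraries.

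Genes that act with these 47 were read from 6 lists with 77 further Wnt pathway genes, of which 68 were tested. Of these, 7 fell (10.3%) and 17 rose (25%), with a median log2 fold change of 0.12, beside 12.2% lower, 11.6% higher and a median of -0.0037 over all tested genes. The lists were chosen with earlier results of these data known, so these shares are no independent result. The 17 include Sostdc1, which entered the test through the knockouts only. Leaving out 1 library at a time left 2 to 7 lower and 7 to 17 higher. The fewest were 2 lower without knockout 1 and 7 higher without knockout 2. There were 4 lower without control 4, 3 lower without knockout 2, 4 lower and 11 higher without knockout 3, and 10 higher without knockout 1. Without controls 3 and 4 there were 4 lower and 11 higher. Under all 15 alternatives 2 of the 7 lower genes (Prickle1 and Ccnd1) and 5 of the 17 higher genes (Ankrd6, Apc, Myc, Pygo1 and Tle4) passed.

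The list of other Wnt receptors and planar cell polarity genes held 18 tested genes, with 3 lower (16.7%) and 5 higher (27.8%). The shares over all tested genes were 12.2% and 11.6%. Adgra2, a Wnt7 co-receptor, had 308, 237, 865 and 697 normalized counts in controls and 184, 181 and 205 in knockouts. Its log2 fold change of -1.47 did not pass (edgeR adjusted p = 0.0559). It passed with DESeq2 (adjusted p = 0.00410) and without control 2 (edgeR adjusted p = 0.0214). Prickle1, a cytoplasmic core protein of planar cell polarity, had 6711, 6771, 6502 and 6290 normalized counts in controls and 3721, 3730 and 3465 in knockouts. These groups were tight and far apart (log2 fold change -0.85, 95% confidence interval -0.98 to -0.73; edgeR adjusted p = 0.000109). Vangl1, a membrane protein of the same core, fell by 0.49 on the log2 scale, and Daam1, the formin relative of Daam2, fell by 0.41 (edgeR adjusted p = 0.00991 and 0.0255). Vangl1 was lost without knockout 1 (edgeR adjusted p = 0.0551) and without controls 3 and 4 (0.0541), and Daam1 without control 1 (0.0513), knockout 1 (0.0862), knockout 2 (0.0734) or knockout 3 (0.0521). Ankrd6, which encodes the Diversin protein, rose from 704 ± 44.8 to 1134 ± 124 normalized counts (log2 fold change 0.69; edgeR adjusted p = 0.00344). Celsr1, Celsr3, Vangl2 and Tspan12 also rose, under 13, 12, 12 and 11 of 15 alternatives, Tspan12 not with the replicate number as a block (edgeR adjusted p = 0.0526). Each of these 4 was lost without knockout 2 (edgeR adjusted p = 0.0560, 0.0905, 0.0891 and 0.0539).

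On the ligand side, 2 of 8 tested genes rose (25%) and none fell, beside 11.6% higher and 12.2% lower over all tested genes. Lgr6, a receptor for the R-spondins that strengthen Wnt signals, rose from 46.8 ± 23.0 to 175 ± 47.4 normalized counts (log2 fold change 1.90; edgeR adjusted p = 0.0127). Ndp, which encodes the Fzd4 ligand norrin, rose from 179 ± 10.5 to 265 ± 19.5 (log2 fold change 0.57; edgeR adjusted p = 0.0120). Both were lost without knockout 2 (edgeR adjusted p = 0.0527 and 0.0548), and Ndp also without controls 3 and 4 (0.0560). Porcn and Wls, which lipidate and export Wnt proteins, had log2 fold changes of 0.16 and 0.15, and Lgr4 one of 0.34 (edgeR adjusted p = 0.0768), and these 3 did not pass. Of the 7 tested inhibitors, 2 rose (28.6%) and none fell. The 2 were Draxin (log2 fold change 1.5, edgeR adjusted p = 0.0165) and the scarce Sostdc1 (log2 fold change 1.5, edgeR adjusted p = 0.0222). Sostdc1 passed under 9 of 15 alternatives and not with the replicate number as a block (edgeR adjusted p = 0.108). It was not tested where at least 10 counts were required in every library. Sostdc1 had 3 to 10 counts in controls and 13, 23 and 29 in knockouts, and it entered the test through the knockouts only. Draxin, better known as an axon guidance factor that also binds LRP6, had 412, 519, 221 and 212 normalized counts in controls and 834, 1062 and 989 in knockouts, again with controls 3 and 4 lowest, and was lost without knockout 2 (edgeR adjusted p = 0.0621). Kremen1, a Dickkopf receptor, had a log2 fold change of -0.18 and did not pass.

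In the cytoplasm list, 3 of 15 tested genes rose (20%) and 1 fell (6.67%), beside 11.6% higher and 12.2% lower over all tested genes. Apc, a scaffold of the β-catenin destruction complex, had 19267, 17617, 13902 and 15259 normalized counts in controls and 28019, 27302 and 26671 in knockouts (log2 fold change 0.73, 95% confidence interval 0.47 to 0.99; edgeR adjusted p = 0.00484). No library of one genotype came near the other. Amer1, which binds Apc at the membrane, rose (log2 0.34; edgeR adjusted p = 0.0262) and Tnks, which marks axin for degradation, fell (log2 -0.23; 0.0273), and these passed under 8 and 7 of the 15 alternatives. With the replicate number as a block they were lost (edgeR adjusted p = 0.0748 and 0.0719), while Csnk1e and Apc2 passed as higher (0.0464 and 0.00625). The kinase genes Csnk1a1 and Csnk1d, the most abundant of the list per exon length in the controls, had log2 fold changes of -0.00 and 0.08. Among β-catenin cofactors and corepressors, 2 of 11 rose (18.2%) and none fell, beside the same 11.6% and 12.2% over all tested genes. Pygo1, a co-activator, rose from 1579 ± 156 to 2588 ± 35.3 normalized counts (log2 0.71, edgeR adjusted p = 0.00170). Tle4, a corepressor, was the other (log2 0.57, edgeR adjusted p = 0.00928). Tle1, Tle5 and Ctnnbip1 did not pass, with log2 fold changes of -0.28, -0.20 and 0.13, although Tle1 passed as lower with the replicate number as a block (edgeR adjusted p = 0.0220).

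Of 9 tested genes often used as β-catenin targets, 3 fell and 3 rose (33.3% each, beside 12.2% lower and 11.6% higher over all tested genes). Ccnd1, which encodes cyclin D1, had 9384, 11661, 14887 and 10398 normalized counts in controls and 5712, 4284 and 6384 in knockouts (log2 fold change -1.09; edgeR adjusted p = 0.00850). Myc went the other way, with 3051, 2958, 2277 and 2504 against 4490, 4125 and 3903 (log2 fold change 0.63; edgeR adjusted p = 0.00814). Tnfrsf19, a membrane receptor, rose by a log2 fold change of 0.28 (edgeR adjusted p = 0.0249), and Id2, the most abundant of the list per exon length, had one of 0.11. Cd44 and Jag1 also fell and Bambi also rose, each under 9 of 15 alternatives, and Tnfrsf19 passed under 10 but not with the replicate number as a block (edgeR adjusted p = 0.0700).

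**Figure D5:**
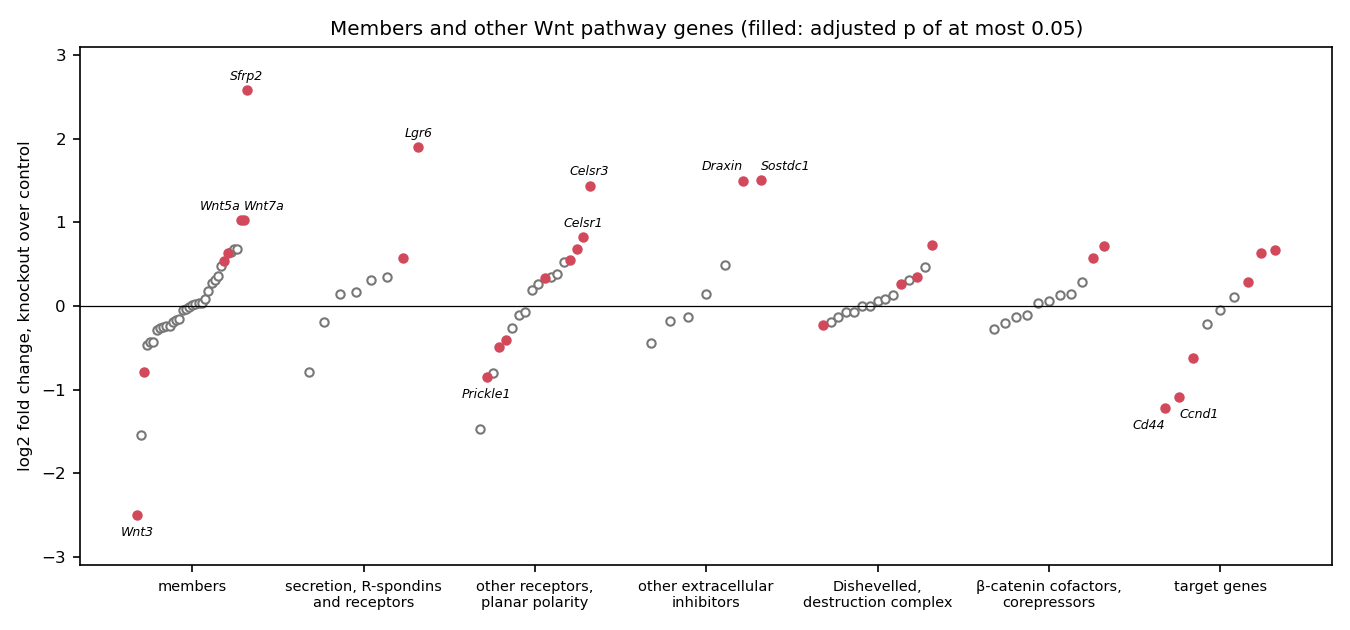
Log2 fold change of knockout over control for the tested genes of the Wnt set (members) and of 6 lists of other Wnt pathway genes. Filled circles had an adjusted p of at most 0.05, and those past 0.8 in size are named. The target genes split into 3 that fell and 3 that rose.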

How the data were processed

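RNA from 4 control and 3 knockout cultures, grouped by the titles in the labels, was sequenced by the authors as paired-end reads. Per the labels' processing notes and the study's methods, reads were trimmed (Trimmomatic 0.36), mapped to GRCm38 (STAR 2.5.2b) and counted per gene (featureCounts, Subread 1.5.2). The deposited files hold raw counts per gene, with exon positions and exon length. The annotation release and the strand setting are not given in the sources used here. Symbols came from GENCODE M21 (49056 of 49315 gene IDs, 44823 at the same position).

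Counts were filtered by group (filterByExpr), scaled by TMM and tested with edgeR 4.0.16 (quasi-likelihood, robust) in R 4.3.3, with genotype as the only term and p-values adjusted by Benjamini-Hochberg over 18352 genes. The scripts were tested on simulated data. The alternatives were DESeq2 1.42.0, its size factors, library sizes without the 100 highest genes, 2 other count filters, the replicate number as a block, a term for the ribosomal RNA share, leaving out each library, and leaving out controls 3 and 4 (chosen after seeing the data). Deviations from the group means correlated at 0.11, 0.46 and 0.17 between same-numbered control and knockout libraries 1 to 3. Differently numbered ones had -0.53 to 0.20. Only number 2 stood out, since knockout 1 correlated more with control 4 (0.20) and knockout 3 nearly as much with control 1 (0.15). With each same-numbered value above 0.1, the numbers were taken to pair the samples in the block alternative only. This pairing comes from the data and the numbers in the titles, not from a stated batch.

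Library totals of 24507471 to 59596479 counts set the precision, and limits from a count of 0 (3 counts) cover counting error only. Named were all genes of the set that passed, the 2 with the highest level in each role group, and, of each other list, up to 3 with the smallest adjusted p and the 2 with the highest level. Other genes named by direction only, or for a change of call, were chosen after their values were seen. The members of the set and the lists were chosen with earlier results of these data known. Promoter windows were taken from RefSeq (GRCm38.p6). Tle5 was matched to Aes, its older symbol, by its RefSeq position. One of the oligodendrocyte markers is not reported here and was left out of the summed level.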

Additional observations from a re-analysis of the deposited data

Results flagged for a closer look

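In 35 groups of 4 controls, 1 control library stood apart from the other 3 for 3 genes by Dixon's test, and chance flags about 1 in 20 groups. For Fzd5, control 1 was lowest at 395.61 normalized counts, with the next control at 519.9. For Lrp5, control 3 was highest at 1998.01 normalized counts, with the next at 1394. For Apcdd1, control 4 was highest at 1244 normalized counts, with the next at 1013. Below the filter on low counts, Dkk1 had 9 counts in the 3 knockout libraries together and 0 in the 4 controls. Only rises were flagged there. In the other direction, Wnt11 had 33 counts in the 4 controls and 7 in the 3 knockouts, with each normalized knockout value below each control value.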

How the results depend on the processing

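Wnt3, Fzd5, Wnt5a and Sfrp2 passed under all 15 alternatives, and no called value changed sign. The sign of 10 genes that did not pass turned under at least 1 alternative, 30 values in all, none of them called. With 1 library left out at a time, the log2 fold change ran from -0.77 to 0.34 for Dkk2, -0.22 to 0.23 for Dkk3, -0.294 to 0.0526 for Fzd7, -0.0676 to 0.208 for Fzd9, -0.0338 to 0.208 for Lrp5, -0.0409 to 0.0308 for Ctnnb1, -0.0828 to 0.0328 for Axin2, -0.101 to 0.0682 for Apcdd1 and -0.0141 to 0.227 for Rnf43. With the replicate block it was 0.0102 for Ctnnb1, 0.0103 for Axin2, 0.0438 for Apcdd1 and 0.002 for Dkk2. Without controls 3 and 4 it was 1.13 for Dkk2, 0.0738 for Fzd7, 0.0371 for Ctnnb1, 0.0123 for Axin2, 0.0621 for Apcdd1 and -0.0016 for Wnt1. Leaving out 1 library at a time gave 2 to 3 lower and 3 to 7 higher genes of the Wnt set, 1 to 2 and 1 to 3 with a log2 fold change of at least 1, and 2 to 7 lower and 7 to 17 higher other pathway genes. With a term for the ribosomal RNA share, 4 genes of the set were lower. With the replicate block, 6 genes of the set were higher (Wnt7b added) and 1 passed as higher with a log2 fold change of at least 1, and beside the calls on other pathway genes given with their values in the report, the block changed no other call. Without controls 3 and 4, an alternative chosen after seeing the data, 2 genes of the set were higher, 1 of them with a log2 fold change of at least 1, and 4 other pathway genes were lower and 11 higher. The cause of these shifts was not tested, beyond the smaller number of libraries where some were left out. Depth limited Wnt1, Wnt2, Rnf43 and the 12 untested genes. Ctnnb1, Fzd5, Sfrp2, Wnt5a, Wnt7b, Wnt11, Axin2, Lef1, Notum and Tcf7l1 share exon bases with opposite-strand neighbours. Without a stated strand setting, it is not known how many reads there came from the neighbours or were left uncounted.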
